A study of Homo sapiens with 4 samples.

Results

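Chromatin accessibility was examined at 9 genes of the tight junction: the claudins CLDN1, CLDN3, CLDN4, CLDN7 and CLDN11, the membrane protein OCLN (occludin), the scaffold proteins TJP1 (ZO-1) and TJP3 (ZO-3), and the adhesion molecule F11R (JAM-A). A region belonged to a gene when its summit lay in the gene body or no farther than 50 kb from a transcription start site (TSS) in the annotation, whatever its height. This gave 74 of 101142 peaks in the list of cells expressing KLF4 alone (CTR) and 82 of 109486 peaks in the list of cells expressing ΔNp63α and KLF4 (p63). At a −log10 q of 10 or more, the threshold the study used for an open region, 39 of 56680 CTR regions and 45 of 62343 p63 regions remained. Where the other list held no overlapping region at this threshold, a region was called CTR-only or p63-only, and otherwise shared.

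Both groups were made from BJ, an established human fibroblast line, and both carried a reverse tetracycline transactivator introduced by lentivirus. The CTR cells held a retroviral doxycycline-inducible KLF4 and the p63 cells the same construct with Myc-tagged ΔNp63α linked to KLF4, so that KLF4 and doxycycline were common to both groups. The lines were polyclonal, each group had 2 samples from separate inductions, and a single list of peaks was deposited for each group. The values given here therefore describe these lists, carry no error between replicates and allow no test between the groups.

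Tight junctions seal the space between neighbouring epithelial cells. Claudins are 4-pass membrane proteins whose extracellular loops form the paracellular barrier or its pores, occludin and the junctional adhesion molecules accompany them in the membrane, and the ZO proteins tie these to each other and to actin. In the epidermis the junctions lie in the granular layer, and loss of CLDN1 in mice is known to cause a lethal loss of water through the skin. Fibroblasts do not form such a barrier, although they use ZO-1 at other contacts. p63 binds DNA as a tetramer through the site it shares with p53, which consists of a pair of decamers, each with a fixed C and G in its core.

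The labels were checked against the lists. The p63 list had a peak of 30 reads in exon 4 and a peak of 16 reads in exon 14 of TP63, and the CTR list had none in an exon of that gene. KLF4 had a peak in exon 3 in both lists, of 70 reads in CTR and 91 in p63. A promoter region at the threshold, within 1 kb of the canonical TSS, was present at 7 of 10 fibroblast genes in either list, with COL1A1, COL3A1 and DCN lacking it. It was present at 1 of 10 keratinocyte genes (PERP), 0 of 3 endothelial genes, 0 of 3 leukocyte genes and 2 of 3 melanocyte genes (MITF and PMEL) in either list. The lowest background coverage was 1.18 reads in CTR and 1.13 reads in p63, and the median pileup at the threshold was 33 reads in both.

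Most open regions at the 9 genes were open in both lists. Of 45 regions in the p63 list, 34 were shared and 11 were p63-only (24.4%, 95% Wilson interval 14.2 to 38.7%), beside 23.9% of all p63 regions. Of 39 in the CTR list, 33 were shared and 6 were CTR-only (15.4%, 7.25 to 29.7%), beside 16.5% of all CTR regions. The shares at these genes were thus close to those of the whole lists, and the counting intervals included them. Of the 11 p63-only regions, 8 lay over a CTR peak that missed the threshold and 3 (6.67% of the 45) over none, beside 12.0% in the whole list. Of the 6 CTR-only regions, 4 overlapped a weaker p63 peak and 2 (5.13% of the 39) overlapped none, beside 3.29% in the whole list. Among peaks of any height, 23 of 82 in the p63 list had no counterpart (28.0%, 19.5 to 38.6%), beside 27.1% of all p63 peaks, and 16 of 74 in the CTR list (21.6%, 13.8 to 32.3%), beside 21.4% of all CTR peaks. In the p63 list the median −log10 q was 11.9 for p63-only and 28.2 for shared regions. In the CTR list it was 13.8 for CTR-only and 29.8 for shared regions. The classes were set by the same −log10 q, which favours regions just above the threshold among list-only ones. No medians of these classes over the whole lists were set beside them. The regions nearest the threshold had a −log10 q of 10.2 inside and 9.89 outside it in the p63 list, and of 10.8 and 9.83 in the CTR list.

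**Figure D1:**
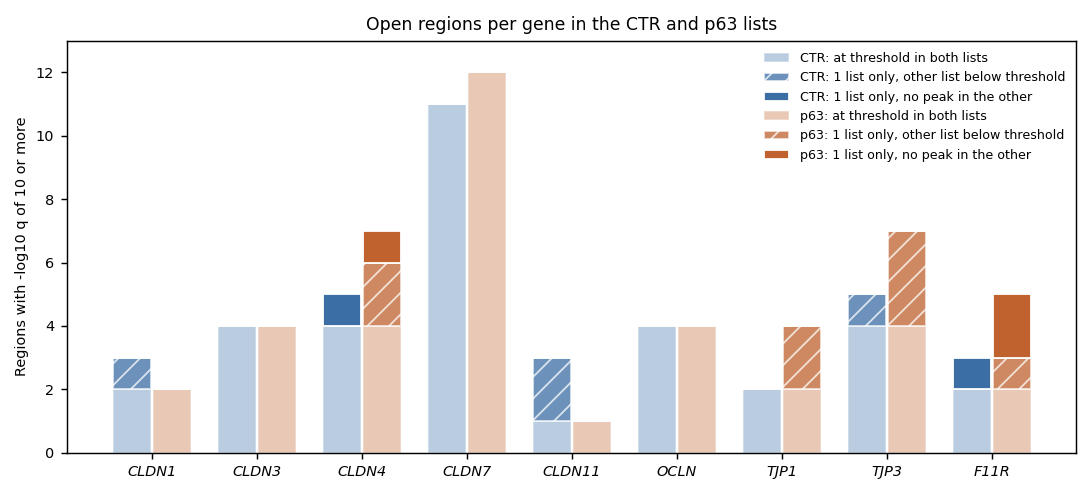
Open regions (−log10 q of 10 or more) per gene, with CTR in blue and p63 in orange. Light bars are regions at the threshold in both lists, hatched bars are regions whose counterpart in the other list was below the threshold, and dark bars are regions without a counterpart. CLDN4, TJP3 and F11R each have 3 p63-only regions, and CLDN3, CLDN7 and OCLN have list-only regions in neither list.

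At least 1 p63-only region was found at 4 of the 9 genes (CLDN4, TJP1, TJP3 and F11R), beside 58.2% of the 20033 protein-coding genes by the same rule. At least 1 CTR-only region was found at 5 genes (CLDN1, CLDN4, CLDN11, TJP3 and F11R), beside 41.9% of protein-coding genes. The counts per gene show CLDN4, TJP3 and F11R with 3 p63-only regions each, a number reached or passed by 13.3% of protein-coding genes. TJP1 had 2 p63-only regions, a number reached or passed by 28.9% of protein-coding genes. CLDN11 had 2 CTR-only regions, which 14.0% of protein-coding genes reached or passed.

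Few promoters of these genes were open. A region at the threshold within 1 kb of the canonical TSS was found at 2 of 9 genes in each list, beside 58.6% of protein-coding genes in CTR and 58.9% in p63. In the CTR list these were CLDN1 and TJP1, and in the p63 list TJP1 and F11R. With peaks of any height, 3 of 9 genes had a peak at the canonical promoter in each list, namely CLDN1, TJP1 and F11R. CLDN3, CLDN4, CLDN7, CLDN11, OCLN and TJP3 had none there in either list. Near other annotated TSS, TJP3 had a shared region, 416 bp away in CTR and 407 bp in p63, with a −log10 q of 23.5 and 26.7. CLDN4 and CLDN7 had weak peaks in both lists near other TSS, at 166 and 157 bp for CLDN4 (12 reads in CTR and 13 in p63) and at 625 and 613 bp for CLDN7 (13 reads in each).

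The promoters of CLDN1 and TJP1 are shown because they overlapped peaks in both lists, one near the threshold and the other well above it. They are RefSeq promoters of GRCh38.p14 on the minus strand, chr3:190322397-190322696 for CLDN1 and chr15:29822419-29822718 for TJP1, from 250 bases before the start to 50 after it. Capitals mark matches of the KLF motif (GGGCGGGGC, GGGTGGGGC, GGGCGTGGC or GGGTGTGGC on either strand).
CLDN1 promoter: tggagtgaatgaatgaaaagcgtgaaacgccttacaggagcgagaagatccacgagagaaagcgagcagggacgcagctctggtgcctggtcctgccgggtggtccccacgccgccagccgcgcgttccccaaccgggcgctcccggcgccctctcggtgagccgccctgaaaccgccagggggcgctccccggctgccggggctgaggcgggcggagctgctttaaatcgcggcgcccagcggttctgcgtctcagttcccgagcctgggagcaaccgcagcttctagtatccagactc
TJP1 promoter: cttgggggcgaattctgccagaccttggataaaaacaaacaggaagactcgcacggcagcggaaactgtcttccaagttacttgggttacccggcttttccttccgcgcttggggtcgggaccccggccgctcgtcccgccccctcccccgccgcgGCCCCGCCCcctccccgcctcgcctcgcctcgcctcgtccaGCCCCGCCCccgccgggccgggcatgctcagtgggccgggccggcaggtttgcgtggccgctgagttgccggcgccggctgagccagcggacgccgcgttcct
Both are rich in G and C, with a GC content of 67% in CLDN1 and 71.3% in TJP1 beside a median of 58.7% over the 35116 promoters in the table. The observed over expected number of CpG was 0.921 and 0.962, beside a median of 0.579. The TJP1 promoter shown held 2 KLF matches and the CLDN1 promoter none, and 18.4% of all promoters held at least 1. Neither held an AP-1 match (TGACTCA or TGAGTCA, found in 4.95% of promoters) or a p63 site (1.12%). A TEAD match (ACATTCCA, ACATTCCT, GCATTCCA or GCATTCCT on either strand, 4.15%) was also absent from both. Another RefSeq promoter of TJP1 (29821430 to 29821729) overlapped the same peak, with a GC content of 62.7% and 0 KLF matches. High values were not particular to promoters with a peak. A CLDN11 promoter (170418618 to 170418917) without a peak in either list had 72% GC, a CpG value of 0.931 and 2 KLF matches. The CLDN4 promoter, also without a peak, had 59% GC and a CpG value of 0.192.

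The claudins are described first. CLDN1 (ENSG00000163347.6, chromosome 3, 190305707 to 190322446, minus strand, GRCh38), the main sealing claudin of the epidermis, had 3 open regions in CTR and 2 in p63. The promoter region (190322213 to 190322570) was CTR-only, with 19 reads at the summit, 8.10-fold enrichment and a −log10 q of 13.2. The p63 list had a peak over the same promoter with 17 reads, 6.55-fold enrichment and a −log10 q of 9.89. It therefore missed the threshold narrowly. The p63/CTR ratio of reads, here and below taken at each list's own summit, was 0.895 with an interval of 0.437 to 1.82. The nearest annotated TSS of CLDN16 lies 95 bp away on the opposite strand. It is not the canonical TSS of CLDN16, which had no peak within 1 kb in either list. Both open regions of the p63 list lay in the body of CLDN16. The stronger, 22885 bp upstream of CLDN1 in p63, had 46 reads in CTR and 48 in p63. The weaker (190338812 to 190339459 in p63) had 19 reads in CTR and 32 in p63, at summits 190339321 and 190339003.

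The weak peaks of CLDN1 were then counted. The p63 list held 10 peaks of any height at this gene and the CTR list 5. None of the 5 CTR peaks lacked a p63 counterpart, whereas 5 p63 peaks had no CTR counterpart, with 6, 9, 9, 10 and 14 reads. At all 9 genes, 20 of 37 p63 peaks below the threshold had no CTR counterpart, beside 47.2% in the whole p63 list, and 14 of 35 CTR peaks below the threshold had no p63 counterpart, beside 44.4% in the whole CTR list. The heights of the 5 peaks at CLDN1 lie at the lower end of the lists, whose lowest deposited peaks had 6 reads in both.

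A p63 site was found in 4 of the 82 p63 peaks at the 9 genes, beside 3.95% of all deposited p63 peaks, and in 1 of the 74 CTR peaks, beside 0.919% of all CTR peaks. A site spanned 20 bp, kept the C and G of each core, had at most 3 mismatches at the other 16 positions, and lay within 100 bp of the summit. The 4 windows are shown because they carry every such site, each with 100 bp to either side of the p63 summit, on the plus strand of hg38 with the site in capitals. They are chr3:190326001-190326201 upstream of CLDN1, chr7:73838666-73838866 downstream of CLDN4, chr3:170458401-170458601 downstream of CLDN11 and chr1:161020156-161020356 in an intron of F11R.
CLDN1 upstream: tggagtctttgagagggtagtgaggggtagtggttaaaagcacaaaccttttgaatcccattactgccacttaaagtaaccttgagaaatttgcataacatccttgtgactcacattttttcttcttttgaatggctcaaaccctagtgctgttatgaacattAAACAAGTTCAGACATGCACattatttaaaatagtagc
CLDN4 downstream: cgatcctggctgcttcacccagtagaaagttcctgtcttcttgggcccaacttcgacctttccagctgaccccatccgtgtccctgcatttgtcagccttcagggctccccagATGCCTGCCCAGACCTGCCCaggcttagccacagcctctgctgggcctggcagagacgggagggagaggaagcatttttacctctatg
CLDN11 downstream: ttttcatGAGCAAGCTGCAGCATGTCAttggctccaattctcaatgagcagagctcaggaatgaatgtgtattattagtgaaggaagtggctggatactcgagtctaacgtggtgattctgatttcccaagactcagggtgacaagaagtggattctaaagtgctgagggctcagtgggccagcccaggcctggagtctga
F11R intron: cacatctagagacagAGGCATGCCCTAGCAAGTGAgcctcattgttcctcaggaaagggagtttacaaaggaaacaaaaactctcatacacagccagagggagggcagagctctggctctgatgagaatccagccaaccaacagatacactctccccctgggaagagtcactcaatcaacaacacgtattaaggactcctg
The CLDN1 site (190326164 to 190326183) came closest to the consensus, with 1 mismatch against 3 in each of the other sites. Its peak lay 3655 bp upstream of the CLDN1 TSS, in the body of CLDN16, and was below the threshold in both lists. It had 11 reads, 4.82-fold enrichment and a −log10 q of 5.13 in CTR, and 15 reads, 6.04-fold enrichment and a −log10 q of 8.32 in p63. An AP-1 match, left in lower case, stood in the same window. The peaks at CLDN4 (18 reads) and CLDN11 (11 reads) were also below the threshold and had no CTR counterpart. The F11R site alone lay in a region at the threshold. Thus 1 of the 11 p63-only regions and no shared region of the p63 list held a site. In the whole p63 list, 11.4% of p63-only and 1.39% of shared regions did.

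**Figure D2:**
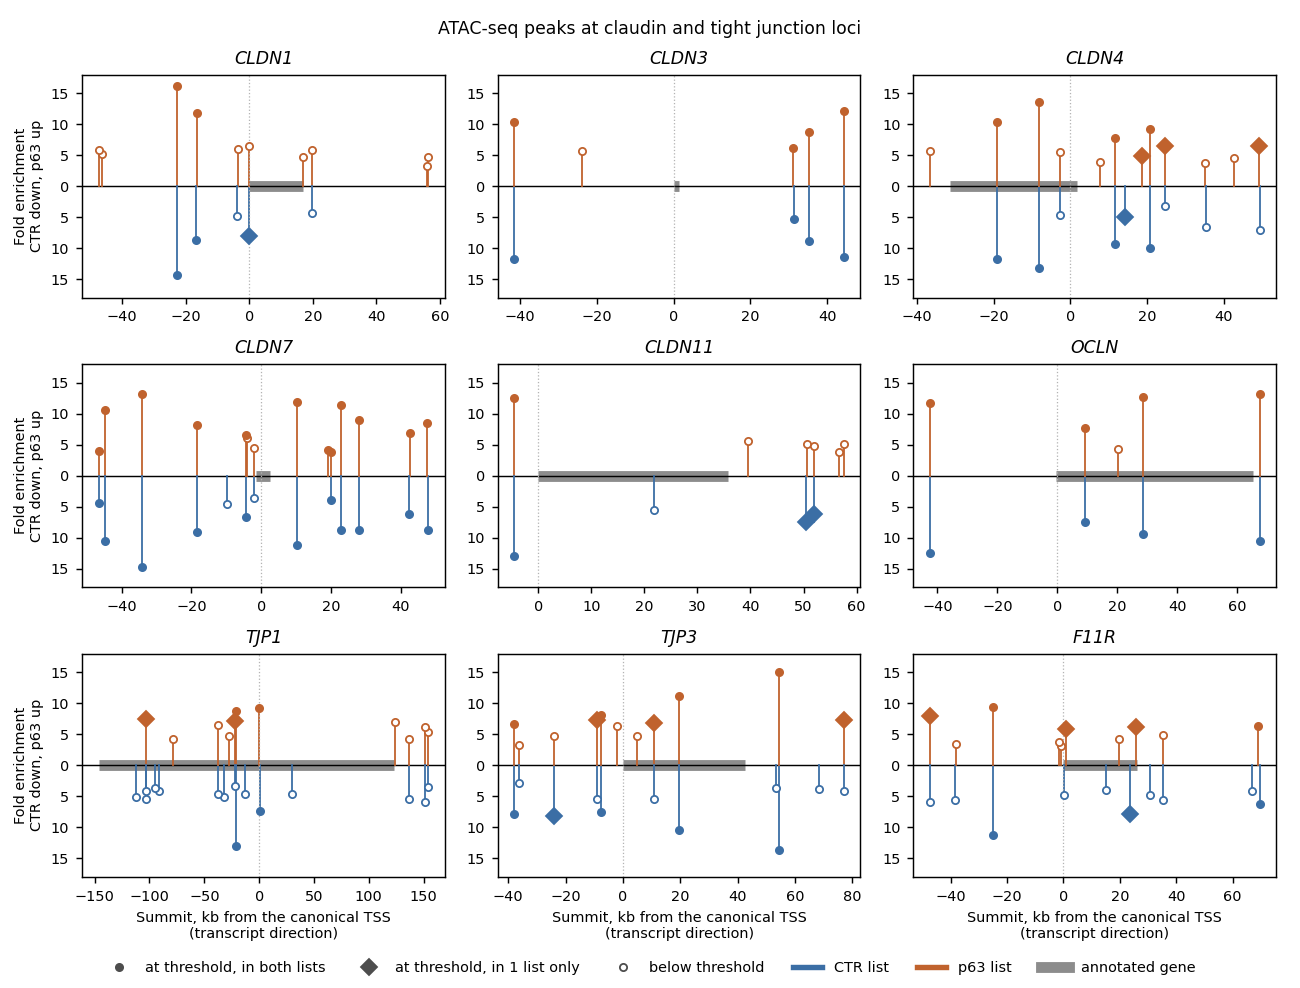
Peaks at the 9 genes by the position of their summit, in kb from the canonical TSS in the direction of transcription, with fold enrichment upward for p63 (orange) and downward for CTR (blue). Filled symbols are at the threshold, diamonds are list-only regions, open circles are below the threshold, and the grey bar is the annotated gene. The diamonds at CLDN4, TJP1, TJP3 and F11R lie away from the canonical TSS except for the F11R region 896 bp downstream of it.

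CLDN3 (ENSG00000165215.6, chromosome 7, 73768997 to 73770270, minus strand) and CLDN4 (ENSG00000189143.10, chromosome 7, 73799542 to 73832690, plus strand) encode claudins known as receptors of a Clostridium toxin, and their TSS lie 60.7 kb apart. CLDN3 had 4 open regions in each list and all were shared. The region with most reads, 2592 bp from the TSS of ABHD11 in CTR, had 94 reads in CTR and 87 in p63. The region with the lowest fold enrichment lay at the ABHD11 promoter, with 58 reads in CTR and 61 in p63. One region (73811643 to 73811998 in CTR, 32 reads, and 21 reads in p63) lay near both claudins and was counted for both, but entered each total as 1.

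CLDN4 had 5 open regions in CTR and 7 in p63. The strongest was shared and lay within the annotated gene, upstream of the canonical TSS (73822300 to 73823141 in CTR), with 128 reads in CTR and 133 in p63. Its window chr7:73822643-73822843 around the CTR summit is shown, plus strand, because it is the strongest region inside a claudin gene and holds 2 AP-1 matches, in capitals.
CLDN4 upstream: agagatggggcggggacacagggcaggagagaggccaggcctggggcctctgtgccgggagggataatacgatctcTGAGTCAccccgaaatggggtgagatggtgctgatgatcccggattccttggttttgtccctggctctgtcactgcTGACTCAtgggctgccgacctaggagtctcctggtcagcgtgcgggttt
The p63-only region with most reads and the highest −log10 q at the 9 genes lay downstream of CLDN4 (73855575 to 73855979). It had 63 reads, 6.43-fold enrichment and a −log10 q of 29.2 in p63, whereas the overlapping CTR peak had 30 reads, 3.24-fold enrichment and a −log10 q of 6.42. The ratio of reads was 2.10 (1.34 to 3.36), taken from the same peaks that made the region p63-only. A narrower p63-only region nearby (73849471 to 73849716, 51 reads, −log10 q of 18.2) had no CTR counterpart. In the whole CTR list, peaks with a local background within 10% of that of this p63 region were listed down to 20 reads. The CTR background at this place is not known, so why no CTR peak was listed was not tested. The third (73880125 to 73880725) had 19 reads in p63 and 15 in CTR, with a −log10 q of 10.7 and 9.83 on either side of the threshold, but its fold enrichment was lower in p63, at 6.54 against 7.01. In the opposite direction, a CTR-only region (73845152 to 73845419, 29 reads) had no p63 counterpart, and p63 peaks of like background elsewhere were listed down to 13 reads. It held an AP-1 match, and both it and the p63-only regions lay in intergenic sequence.

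CLDN7 (ENSG00000181885.18, chromosome 17, 7259903 to 7263983, minus strand), an epithelial claudin, had 11 open regions in CTR and 12 in p63, all shared. They lay mostly at promoters of its many neighbours, such as DLG4, ACADVL, DVL2, PHF23, GABARAP, CTDNEP1, SLC2A4 and EIF5A, and none lay in CLDN7. As few or fewer CTR regions were found at 95.3% of protein-coding genes. The nearest open region, with its summit 2959 bp from a CLDN7 TSS in CTR, had 23 reads in CTR and 18 in p63. The region at the ACADVL promoter (7219671 to 7221241 in p63) had 47 reads in CTR and 76 in p63, a ratio of 1.62 (1.11 to 2.38). The summits differed, at 7220224 in CTR and 7219957 in p63, so these reads were counted at different bases. ACADVL encodes a mitochondrial enzyme of fatty acid oxidation.

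CLDN11 (ENSG00000013297.12, chromosome 3, 170418868 to 170454733, plus strand), the claudin of myelin and of the Sertoli cell barrier, had 3 open regions in CTR and 1 in p63. The shared region 4522 bp upstream of the TSS in CTR had 50 reads in CTR and 38 in p63. Both CTR-only regions lay downstream, in the body of SLC7A14. The first (170469184 to 170469667) had 24 reads in CTR and 11 in p63. The ratio was 0.458 (0.203 to 0.972), taken from the same peaks that made the region CTR-only. Its summit lay at 170469302 in CTR and 170469433 in p63. The second (170470589 to 170470976) had 21 and 12 reads. At both, the p63 peak was below the threshold, with a −log10 q of 5.51 and 5.41.

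OCLN (ENSG00000197822.12, chromosome 5, 69492292 to 69558104, plus strand), a member of the MARVEL family of membrane proteins, had 4 open regions in each list and all were shared. Those within the gene had 17 and 21 reads in CTR and 16 and 31 in p63, and the one upstream had 26 reads in CTR and 24 in p63. The region at the promoter of GTF2H2C had 22 reads in CTR and 29 in p63. OCLN and GTF2H2C have near-identical copies on the same chromosome, so that the placing of reads there is uncertain.

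TJP1 (ENSG00000104067.17, chromosome 15, 29699367 to 29968915, minus strand), the scaffold that links claudins to actin, had 2 open regions in CTR and 4 in p63. Its promoter (29821564 to 29823218 in CTR), with the summit in the 5′ UTR of exon 1, had 38 reads in CTR and 46 in p63, with a −log10 q of 21.0 and 29.7. A shared region in the part of the gene upstream of the canonical TSS (29843743 to 29844139 in CTR) had 34 reads in CTR and 22 in p63. The counting intervals of both ratios included 1 (0.771 to 1.91 at the promoter and 0.361 to 1.14 at the upstream region). Next to that region lay an intronic p63-only region (29844371 to 29844948) with 18 reads in p63 and 8 in CTR, with an interval of 0.931 to 5.98. A second intronic p63-only region (29925546 to 29926052) had 15 reads and overlapped 2 CTR peaks below the threshold, the higher with 11 reads. With all peaks counted, the CTR list held more at TJP1, 15 against 11, so the order of the lists depended on the height required.

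TJP3 (ENSG00000105289.15, chromosome 19, 3708362 to 3750813, plus strand), a ZO protein found mainly in epithelia, had 5 open regions in CTR and 7 in p63. The shared region inside the gene, 407 bp from the nearest annotated TSS in p63 but 19585 bp from the canonical one, had 31 reads in CTR and 34 in p63. Of the p63-only regions, one lay in an intron of TJP3 (3718606 to 3719456), with 16 reads in CTR and 23 in p63. The strongest lay in PIP5K1C (3699081 to 3699623), with 20 and 34 reads, and the third at the promoter of MATK (3785062 to 3785573), with 9 and 15 reads. The CTR-only region also lay in PIP5K1C (3683699 to 3684280), with 22 reads in CTR and 11 in p63. All 4 had a weaker counterpart in the other list, and the counting interval of each ratio included 1.

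F11R (ENSG00000158769.18, chromosome 1, 160995211 to 161021343, minus strand), an immunoglobulin-like adhesion molecule, had 3 open regions in CTR and 5 in p63. The p63-only region with the site (161020031 to 161020505) lay in an intron, 896 bp downstream of the canonical TSS. It had 25 reads, 5.91-fold enrichment and a −log10 q of 11.9, and no CTR counterpart (CTR peaks of like background elsewhere: down to 10 reads). Its site (161020171 to 161020190) lay 75 bp from the summit. The CTR list had a weak peak at the same promoter (161020747 to 161021145, 12 reads, −log10 q of 5.37) that did not overlap it. Both lists thus had a peak near the TSS, but at different positions.

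The 3′ UTR of F11R, in exon 10, carried a list-only region in each list. The p63-only one (160995309 to 160995644) had 19 reads and the CTR-only one (160997417 to 160997578) had 24, and neither had a counterpart. Peaks of like background elsewhere in the other list were listed down to 8 reads in both cases, and the cause of the absence was not tested. The remaining p63-only region (161068270 to 161068635) lay in ARHGAP30, with 28 reads in p63 and 17 in CTR. The shared regions lay at the promoters of USF1, with 87 reads in CTR and 69 in p63, and of ITLN2, with 22 and 27 reads.

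Regions found in both lists were compared by their reads at each list's own summit, and the summits of a pair could lie at different bases. There were 42 matched pairs at the 9 genes with at least 1 peak at the threshold. The fold enrichment was higher in p63 in 24 and lower in 18, and the median p63/CTR ratio was 1.02 (quartiles 0.908 and 1.22), beside 1.03 (0.881 and 1.20) over all 60794 pairs. The counting interval of the ratio of reads lay above 1 in 2 pairs, the region downstream of CLDN4 and the ACADVL promoter, beside 7.64% of all pairs. It lay below 1 in 1 pair, the CTR-only region downstream of CLDN11, beside 2.85% of all pairs. The CLDN4 and CLDN11 pairs were at the threshold in 1 list only. The peak values that made them list-only thus also enter their ratios, which add no separate evidence of a difference. The intervals cover the counting of reads in each pooled list and not the difference between inductions. Reads were not scaled between lists, whose lowest background coverage was 1.18 reads in CTR and 1.13 in p63. The intervals make no allowance for this, and that of the CLDN11 pair ends close to 1, at 0.972.

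**Figure D3:**
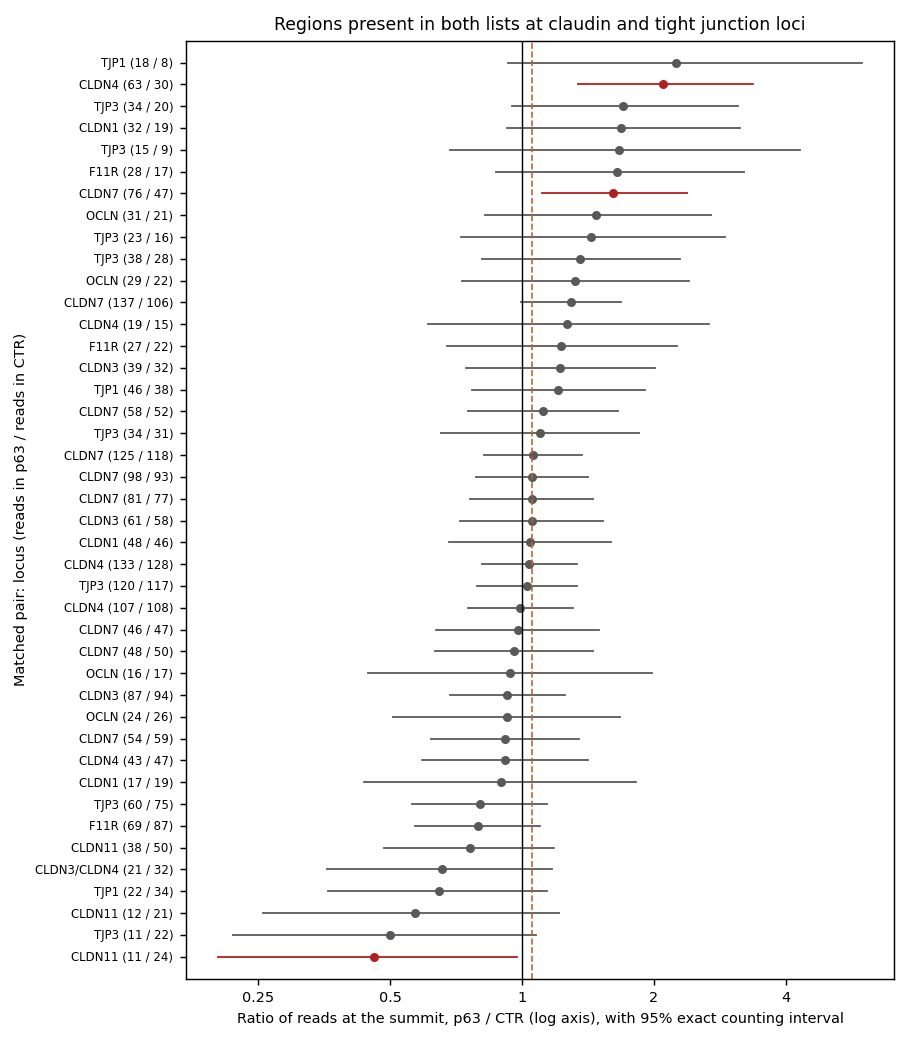
Ratio of reads at each list's own summit, p63 over CTR on a log axis, for the 42 matched pairs, with the 95% exact counting interval. Each line is a pair named by its gene with the reads in p63 and CTR, and red lines have intervals that exclude 1. The dashed line is the median of 1.05, beside a median of 1 over all matched pairs. The 3 red pairs are at CLDN4, CLDN7 and CLDN11, and those at CLDN4 and CLDN11 were at the threshold in 1 list only.

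The sequences around the summits were set beside those of the whole lists. Over the 100 bp to either side of the summit, the median GC content was 58.7% in CTR and 57.2% in p63 regions at the threshold, beside 49.8% and 50.2% in the whole lists. The KLF motif was present in 9 of 39 CTR regions (23.1%, beside 7.40%) and in 8 of 45 p63 regions (17.8%, beside 7.14%). The AP-1 motif was present in 6 of 39 (15.4%, beside 26.9%) and 8 of 45 (17.8%, beside 25.4%). The TEAD motif was present in 2 regions of each list (5.13% in CTR, beside 8.90%, and 4.44% in p63, beside 8.24%). Of the regions at the threshold, 16 in CTR and 17 in p63 lay at the promoter of another gene, and their part in these shares was not tested.

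The other 40 genes of the tight junction, 19 further claudins among them, were then examined. At least 1 p63-only region was found at 29 (72.5%) and at least 1 CTR-only region at 19 (47.5%), beside the 58.2% and 41.9% of protein-coding genes given above. Neighbouring genes such as CLDN6 and CLDN9, or CLDN22 and CLDN24, have regions in common, and long genes collect more of them. By role, p63-only regions were found at 13 of 19 claudins, 6 of 7 scaffold genes, 3 of 4 adhesion molecule genes, both tricellular junction genes, 5 of 6 polarity genes and neither of the MARVEL genes. CTR-only regions were found at 7 claudins, 6 scaffold genes, 1 adhesion molecule gene, 1 tricellular junction gene and 4 polarity genes. An open p63 region without any CTR counterpart was found at 17 genes (42.5%), beside 37.1% of protein-coding genes. An open CTR region without any p63 counterpart was found at 4, beside 11.4% of protein-coding genes. The promoter was open at 13 genes (32.5%) in each list, and at 2 of the 19 claudins, CLDN12 and CLDN23, in each.

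**Figure D4:**
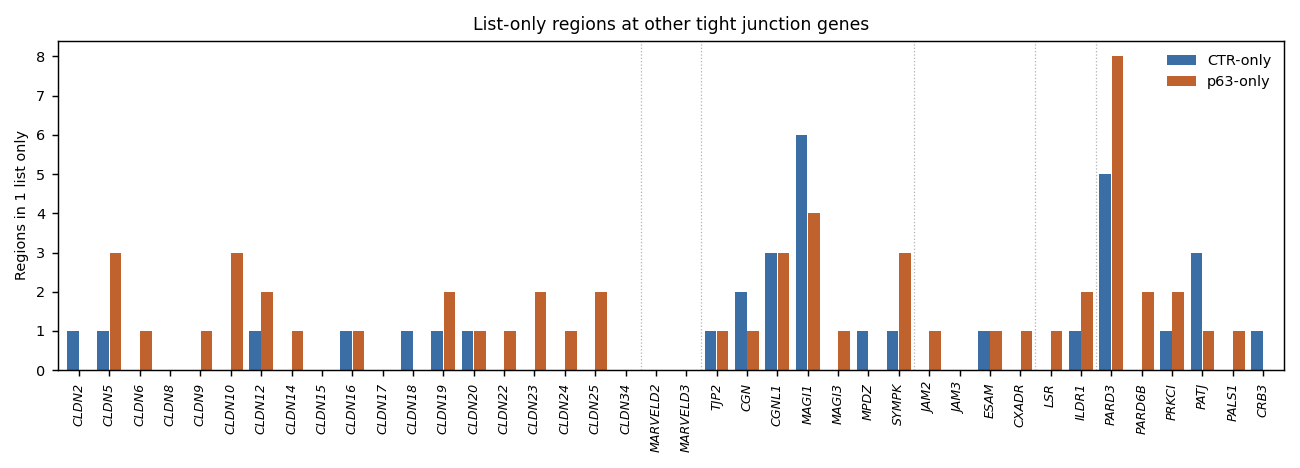
Number of CTR-only (blue) and p63-only (orange) regions at the other 40 tight junction genes, with dotted lines between claudins, MARVEL proteins, scaffolds, adhesion molecules, tricellular proteins and polarity proteins. PARD3 has the most p63-only regions (8, with 5 CTR-only) and MAGI1 the most CTR-only regions (6, with 4 p63-only).

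PARD3, which directs the assembly of junctions as part of a polarity complex, had 8 p63-only regions and MAGI1, a junction scaffold, had 4, while CLDN5, CLDN10, CGNL1 and SYMPK followed with 3 each. A p63 region without a CTR counterpart held a p63 site at CLDN5, CLDN12, CGN (cingulin, a cytoplasmic plaque protein) and PARD3. These were 5 of the 23 such regions at the 40 genes, beside 18.8% of all open p63 regions without a CTR counterpart. Only regions at the threshold without a CTR counterpart were searched here, whereas the search at the 9 genes covered peaks of any height. The 5 sites are shown because they are all the sites found in this search, and they are given on the plus strand of hg38.
CLDN5 (chr22:19510950-19510969): GAACTTGCATGTACAAGTTT
CLDN12 (chr7:90433301-90433320): GGGCATGTTTCAGCCTGTTT
CGN (chr1:151584371-151584390): GATCTAGACTGTACTTGCTC
PARD3 (chr10:34110473-34110492): GAACAGGACCGAACAAGCGT
PARD3 (chr10:34743978-34743997): CAGCATGTCTCGGCTAGTTA
The sites at CLDN5 and CLDN12 had 2 mismatches and the others 3. The region in CLDN12 (90432883 to 90433735) had 42 reads, 12.2-fold enrichment and a −log10 q of 33.6. CLDN12 is a claudin expressed in many tissues, and its promoter was open in both lists, with a −log10 q of 70.2 in CTR and 59.4 in p63. The regions in PARD3 had 21 and 46 reads, that near CLDN5, in the body of CDC45, had 17, and that near CGN, 48555 bp from its nearest TSS, had 24. All 5 regions were stronger in −log10 q than the F11R region with a site, the weakest of them at 12.6 beside 11.9.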

How the data were processed

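The authors carried out ATAC-seq on BJ fibroblasts, with 2 samples each in the CTR and p63 groups. Per the study's methods, each sample was an independent induction of the same polyclonal lines. Reads were mapped to hg38 with Bowtie2 2.3.4.3 and peaks were called with MACS2, per the labels, and each group's peaks were deposited as 1 list. Options of the peak caller, duplicate removal, the transposase shift, the treatment of reads with several matches and total read numbers are not given in the sources used here. The deposited values of a peak were its fold enrichment, a ratio of pileup to local background at the summit, its −log10 p, its −log10 q and the offset of its summit in bp. They were not scaled between lists.

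The pileup in whole reads was recovered from the deposited fold enrichment and −log10 p, within 0.01 of that −log10 p, for 99.98% of CTR peaks and 99.99% of p63 peaks. Intervals of pileup ratios and of shares are at the 95% level and cover counting error only. The precision rests on the pileup, whose lowest value at the threshold was 15 reads. Peaks on chromosomes 1 to 22, X and Y were assigned to genes with GENCODE 44 on the same build, after chromosome names and lengths were checked. Overlaps of at least 1 bp, motif searches (numpy 2.4.6, pysam 0.24.0) and exact intervals (scipy 1.17.1) were tested on simulated data. Promoter sequences were from RefSeq (GRCh38.p14), with entries for 8 of the 9 genes.

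Named regions were the strongest promoter peak of each gene, every region at the threshold with no peak in the other list, the 2 strongest regions of each list that were not at the threshold in the other, and those of the latter kind with a p63 site. Among other tight junction genes, those with a p63 site in a region without a CTR peak and the 3 with most p63-only regions were named. The genes and lists were chosen with earlier results of these data known. With 1 list per group, no test between groups, no leave-one-out analysis and no error between replicates could be computed. Alternatives were other thresholds, overlap rules, distances, start sites, motif limits and measures of height, and the closing section gives their effect.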

Additional observations from a re-analysis of the deposited data

How the results depend on the processing

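Of 40 alternatives computed, 26 left their value within 1.5 times the main count or within its counting interval. The 11 p63-only regions became 5 at a −log10 q of 20 or more, 23 with all deposited peaks, 6 when equal numbers of peaks were taken by rank and 18 within 100 kb of a TSS. The 6 CTR-only regions became 2 at the higher threshold, 16 with all deposited peaks and 10 with a reciprocal overlap of 50%. By rank there were 8 CTR-only regions, more than the 6 p63-only ones, so the order of the lists turned at the examined genes. Except with all deposited peaks, no share of the whole lists was set beside these alternatives. Whether the changes and the turned order are particular to the examined genes was therefore not tested. The 3 p63 regions without a CTR peak became 0 at the higher threshold, 23 with all deposited peaks, 10 with the reciprocal overlap and 6 within 100 kb. The single p63-only region with a site was lost (0) with at most 2 mismatches, within 50 bp of the summit and at the higher threshold. The p63-only share stayed between 16.2% and 35.6% under all 8 alternatives run. The median fold ratio of matched pairs was 1.03 at the higher threshold and 1.02 with every overlapping pair. Measured by reads at the summit, the median ratio was 1.05, beside 1 over all matched pairs. The cause of these changes was not tested beyond the construction of each alternative.

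No paired analysis was possible because the lists pool the replicates of a group, and leaving out each replicate was not run for the same reason. Depth limits the smallest regions, since the lowest pileup at the threshold was 15 reads.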
